A study of Aedes aegypti and Anopheles culicifacies with 47 samples.

Results

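Gr1 (AAEL002380), Gr2 (AAEL002167) and Gr3 (AAEL010058) are the subunit genes of the carbon dioxide receptor of the mosquito *Aedes aegypti*. They were taken by identifier, as 3 of the 19804 *Aedes* genes in the deposited count files, and all 3 were readable in every *Aedes* library. Female mosquitoes detect exhaled carbon dioxide with a sensory neuron in the capitate peg sensilla of the maxillary palp, a mouthpart organ of smell. The receptor belongs to the gustatory receptor family by sequence but works in this olfactory organ, and the cue draws females toward a host and sharpens their response to other host odours. Gr3 is required for the carbon dioxide response of *Aedes aegypti*. In *Drosophila melanogaster* the counterparts of Gr1 and Gr3 act together as the receptor, and Gr2 has no counterpart there.

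RNA was sequenced from wild-type adult females of 5 to 6 days, all kept on a cycle of 12 h light and 12 h dark and given no agent in the labels. Dissections were made at 4 clock times, and each library is either olfactory tissue, which pools antennae with maxillary palp, labium and proboscis, or brain. Of the 8 olfactory libraries 2 were from 6am, 2 from 12pm, 3 from 6pm and 1 from 12am, and brain had 2 from each clock time. The study asked how daily rhythms of both tissues relate to the day-biting habit of this species. The females shared a cohort, and how many entered a library is not given in the sources used here. In the olfactory libraries the palps are diluted by the other mouthparts and the antennae, so fewer receptor cells and less RNA per receptor cell cannot be told apart in any value below.

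Reads assigned to genes numbered 853349 to 6558092 in the 8 olfactory libraries and 5072614 to 10202123 in the 8 brain libraries. The shallowest were olfactory 6pm replicate 2, with 853349 reads, and olfactory 12pm replicate 2, with 1139430 reads. Olfactory 12pm replicate 2 also had the lowest share of reads assigned to genes, 41.8%. The most counted gene took 9.06 to 18.4% of the reads in genes in olfactory libraries and 1.85 to 3.97% in brain libraries. Levels are given as CPM, the reads of a gene divided by all reads assigned to genes in that library, times 1000000. CPM does not correct for transcript length, so levels of different genes are not ranked against each other.

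All 3 genes were far higher in olfactory tissue than in brain, and no olfactory library overlapped any brain library. Gr1 averaged 43.0 ± 18.8 CPM in olfactory tissue and 0.676 ± 0.618 CPM in brain (SD, n = 8 each). For Gr2 the means were 24.7 ± 11.8 CPM in olfactory tissue and 0.273 ± 0.260 CPM in brain (SD, n = 8 each). The means of Gr3 were 42.7 ± 11.04 CPM in olfactory tissue and 0.136 ± 0.225 CPM in brain (SD, n = 8 each).

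**Figure D1:**
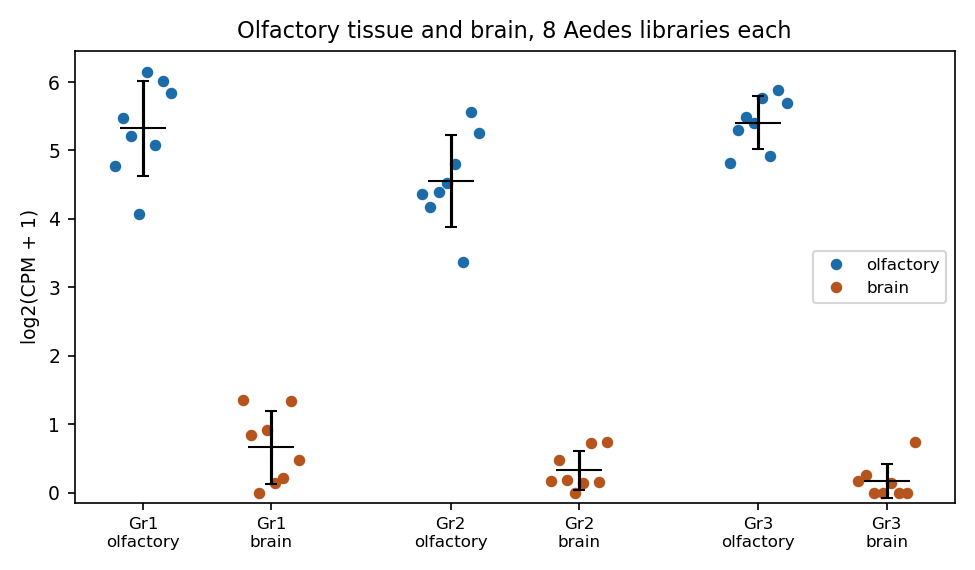
Levels of Gr1, Gr2 and Gr3 in *Aedes* olfactory tissue and brain, as log2(CPM + 1) on the vertical axis. Each point is a library, 8 per tissue, and the bars are mean ± SD; the lowest olfactory library of each gene (15.8 CPM for Gr1, 9.37 CPM for Gr2, 27.1 CPM for Gr3) is above its highest brain library (1.55, 0.660 and 0.660 CPM).

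The olfactory libraries carried most of the reads despite their smaller depth. Gr1 had 1183 reads in the olfactory libraries together and 43 in the brain libraries together. Gr2 had 719 reads in olfactory tissue and 15 in brain. For Gr3 there were 1100 reads in olfactory tissue and 8 in brain. As ratios of CPM, this made Gr1 73.9-fold higher in olfactory tissue (exact Poisson 95% interval 54.5 to 102.6), Gr2 128.7-fold (77.5 to 231) and Gr3 369-fold (187 to 857). These intervals, like all counting intervals here, cover counting error only.

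In 1 edgeR fit of all 16 libraries, with TMM scaling and averaged over the clock times, olfactory tissue exceeded brain by a log2 change of 6.74 for Gr1 (SE 0.41, adjusted p = 1.22e-08). The log2 change was 7.28 for Gr2 (SE 0.45, adjusted p = 1.07e-08, edgeR). It was 9.16 for Gr3 (SE 0.40, adjusted p = 1.14e-09, edgeR). The average for Gr3 takes in 12pm, where brain held 0 reads, so its size depends on how the fit treats counts of 0. On log2(CPM + 1) the difference of means for Gr3 was 5.24. All 3 passed the threshold of an adjusted p under 0.05 with a log2 change of at least 1, as did 52.4% of the 11455 genes tested, and 30.0% of the genes tested passed with the higher level in olfactory tissue. By size, 0.725% of the genes tested had a larger change than Gr3, 1.92% a larger one than Gr2 and 2.64% a larger one than Gr1. These are ranks 84, 221 and 303. By the log2 ratio of mean CPM + 1, Gr3 stood at rank 163, Gr1 at 234 and Gr2 at 297 of the same genes. The order of Gr1 and Gr2 thus depended on the measure. The median change of all genes was 0.13 on the log2 scale with TMM scaling and -0.39 with library totals alone, and the changes of Gr1, Gr2 and Gr3 were then 6.22, 6.76 and 8.68.

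The fitted change depended on single brain libraries where few reads were left behind. Without brain 12pm replicate 2, which held all 9 of the Gr1 reads in brain at 12pm, the log2 change of Gr1 was 7.81. Without brain 12am replicate 3, which held 5 of the 8 Gr3 reads in brain, the log2 change of Gr3 was 10.08. A two-sided exact permutation test of log2(CPM + 1) between 8 and 8 libraries gave p = 0.000155 for each gene, the smallest value that the 12870 splits allow. Each library came from a single tissue, so the tissues and anything that differed between their library preparations cannot be told apart.

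The separation was also present at every clock time, by counts summed over the libraries of a time. Gr1 was 27.0-fold higher in olfactory tissue than in brain at 6am (exact Poisson 95% interval 16.1 to 48.4), 56.4-fold at 12pm (28.5 to 127.2) and 56.5-fold at 12am (34.1 to 100.5). At 6pm brain held 2 reads of Gr1, and the ratio was 510 with an interval of 141 to 4216. Gr2 was 78.6-fold higher at 6am (26.0 to 388), 120.2-fold at 6pm (51.1 to 372) and 99.6-fold at 12am (44.8 to 276). At 12pm brain held 1 read of Gr2, and the ratio was 360 with an interval of 62.4 to 14416.

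Gr3, the subunit without which the insect does not respond to the gas, had 0 reads in both brain libraries at 12pm, out of 17422198 reads in genes. The exact Poisson 95% interval of the ratio of olfactory tissue to brain at that time began at 201 and had no upper end. Against a floor of 3 reads assumed over those brain libraries, the ratio was 250.4, a point value that carries no counting error. At 12am it was 163-fold higher (exact Poisson 95% interval 68.7 to 507). The 6am ratio rested on 2 brain reads and was 204 (55.6 to 1702), and the 6pm ratio rested on 1 brain read and was 875 (156 to 34625). The intervals of each gene overlapped between clock times, except that the interval of Gr1 at 6pm was above those at the other 3 clock times. Gr1 counts spread between libraries beyond counting error, with a chi-square over its degrees of freedom of 17.7 in olfactory tissue and 4.44 in brain. These intervals leave that spread out, and the test over libraries of tissue by clock time, given below, was not passed by Gr1.

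Each gene had some reads in brain. Gr1 was counted in 7 of 8 brain libraries, Gr2 in 7 of 8 and Gr3 in 4 of 8. For Gr1 the brain libraries held 12 and 4 reads in the 6am pair, 0 and 9 in the 12pm pair, 1 and 1 in the 6pm pair, and 13 and 3 in the 12am pair. Both 6pm libraries were low, but they lay within the range of the 12pm pair. The other clock times overlapped in their counts. The highest brain value of Gr1 was 1.55 CPM (6am replicate 1), where 3 reads would give 0.388 CPM.

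For Gr2 the brain libraries held 1 and 2 reads in the 6am pair, 1 and 0 in the 12pm pair, 1 and 4 in the 6pm pair, and 1 and 5 in the 12am pair. For Gr3 they held 1 and 1 in the 6am pair, 0 and 0 in the 12pm pair, 1 and 0 in the 6pm pair, and 0 and 5 in the 12am pair. Only the values of 4 and 5 reads exceeded the floor of 3 reads, so the order of the clock times in brain cannot be read for these genes at this depth.

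**Figure D2:**
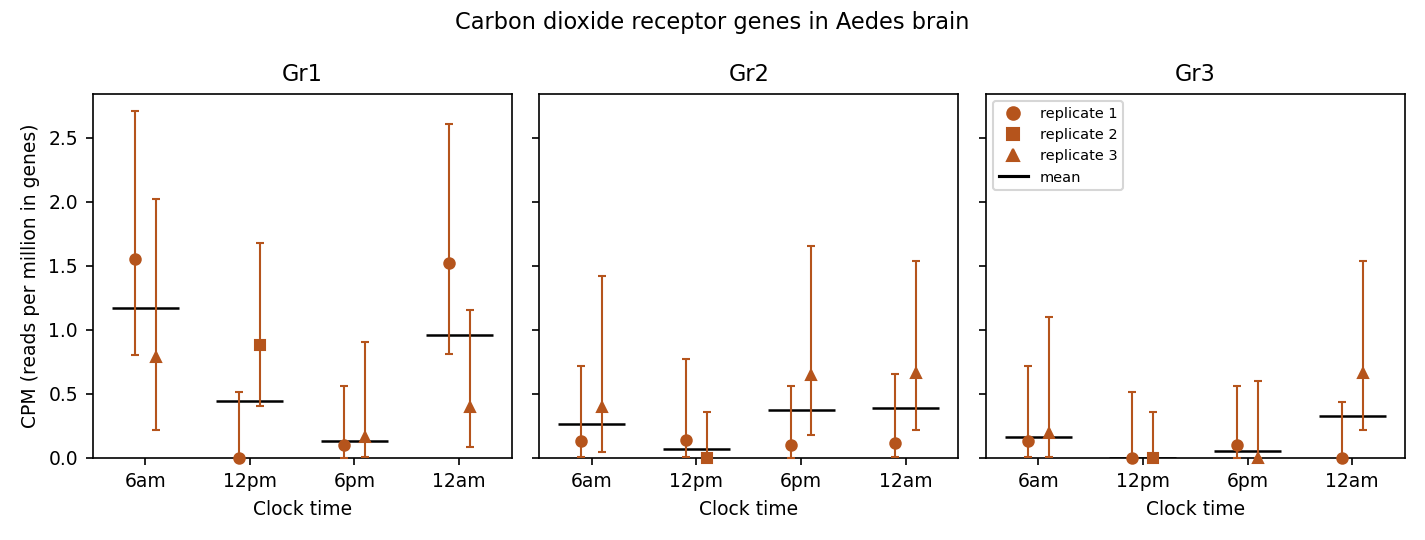
Levels of Gr1, Gr2 and Gr3 in *Aedes* brain in CPM by clock time. Points are libraries with exact Poisson 95% intervals, marker shapes give the replicate number, and black lines are means; no value is above 1.55 CPM, and Gr3 is at 0 in both 12pm libraries.

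Gr1 was the only one of the genes with enough brain reads to be tested over clock times. It did not pass (edgeR, F-test over 4 clock times, unadjusted p = 0.238, adjusted p = 1.00), against 0.0104% of the 9578 genes tested in brain, which is 1 gene. The log2 change of 6am against 6pm, the highest and lowest fitted times, was 3.08, and 2.49 to 3.45 in the alternatives. It rested on 1 read in each 6pm library. With a replicate block the same F-test gave unadjusted p = 0.0168 and adjusted p = 0.995.

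In reads summed over libraries, the genes made up different shares of the receptor reads in each tissue. Of 3002 reads of the 3 genes in olfactory tissue, Gr1 took 39.4% (exact Clopper-Pearson 95% interval 37.7 to 41.2), Gr2 23.95% (22.4 to 25.5) and Gr3 36.6% (34.9 to 38.4). Of 66 such reads in brain, Gr1 took 65.2% (52.4 to 76.5), Gr2 22.7% (13.3 to 34.7) and Gr3 12.1% (5.38 to 22.5). The intervals of Gr1 and of Gr3 did not overlap between the tissues, and those of Gr2 did. This comparison was made after the values were seen and was not tested over libraries, and its intervals leave out the spread between libraries. Of the 43 Gr1 reads in brain 12 came from 6am replicate 1 and 13 from 12am replicate 1. Of the 8 Gr3 reads in brain 5 came from 12am replicate 3.

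Within olfactory tissue, none of the 3 genes differed between clock times beyond the spread of the libraries. Gr1 was at 26.3 and 43.4 CPM in the 6am libraries, 36.2 and 15.8 CPM in the 12pm libraries, 69.8, 32.8 and 63.6 CPM in the 6pm libraries, and 56.1 CPM in the 12am library. Replicates 1 and 3 at 6pm and the 12am library were the highest, but 6pm replicate 2 lay among the 6am and 12pm libraries, so the clock times overlapped. By mean level the order was 12am, 6pm, 6am and 12pm, and the ranges of neighbouring clock times overlapped throughout.

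Gr2 was at 19.5 and 17.0 CPM in the 6am libraries, 19.97 and 21.9 CPM in the 12pm libraries, 27.0, 9.37 and 46.1 CPM in the 6pm libraries, and 37.1 CPM in the 12am library. The lowest and the highest of these values were both at 6pm, in replicates 2 and 3. The 6am and 12pm libraries lay within 17.0 to 21.9 CPM, without overlap between those clock times, and the order of means was 12am, 6pm, 12pm and 6am.

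Gr3 was at 27.1 and 38.2 CPM in the 6am libraries, 44.1 and 41.2 CPM in the 12pm libraries, 53.4, 29.3 and 57.8 CPM in the 6pm libraries, and 50.6 CPM in the 12am library. It varied least, with a coefficient of variation of 25.8% over the 8 olfactory libraries, against 43.8% for Gr1 and 47.5% for Gr2. Both 6am libraries were below both 12pm libraries, and the range of the 6pm libraries took in all other libraries except 6am replicate 1. The order of means was that of Gr2, from 12am down through 6pm and 12pm to 6am.

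**Figure D3:**
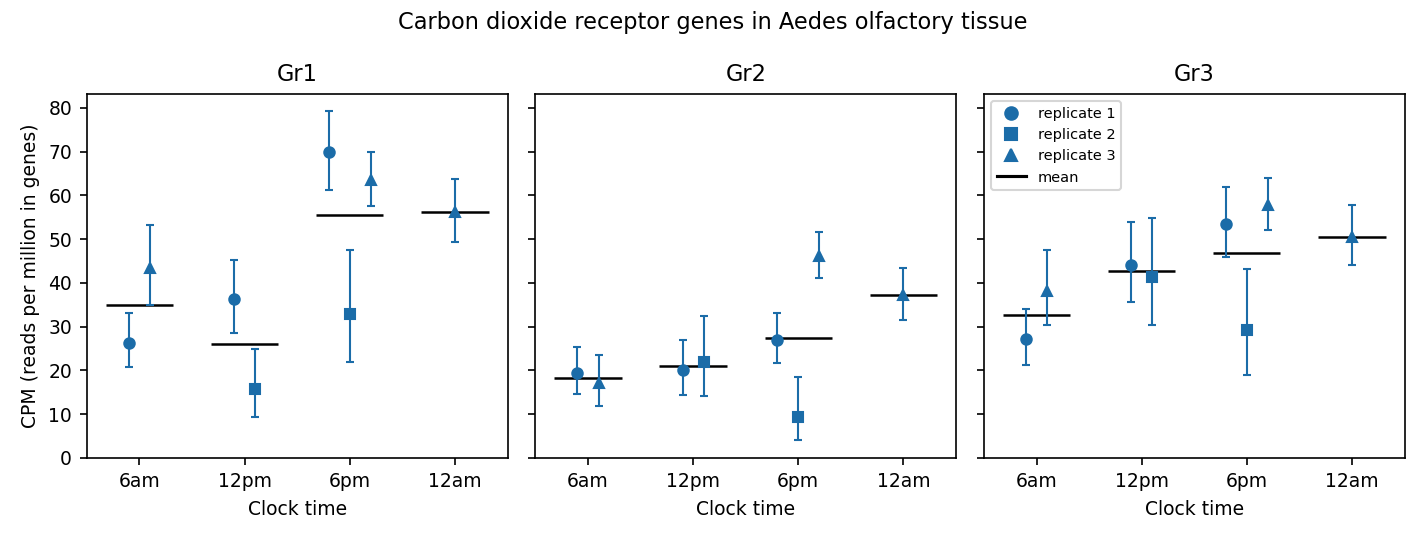
Levels of Gr1, Gr2 and Gr3 in *Aedes* olfactory tissue in CPM by clock time. Points are libraries with exact Poisson 95% intervals, marker shapes give the replicate number, and black lines are means; at 6pm replicate 2 is below replicates 1 and 3 for every gene, and 12am has 1 library.

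The test for any difference among the 4 clock times gave adjusted p = 0.887 for Gr1, 0.943 for Gr2 and 0.960 for Gr3 (edgeR quasi-likelihood F-test, adjusted over 9948 genes; unadjusted p = 0.217, 0.624 and 0.768). Of the genes tested, 0.0503% passed, which is 5 genes. Exact permutation tests over the 1680 arrangements of the libraries gave p = 0.367 for Gr1, 0.730 for Gr2 and 0.583 for Gr3. At 12am the single library was assumed to vary like those of the other clock times.

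Intervals of the contrasts against 6am show which changes the data leave possible. At 12pm the log2 change was -0.45 for Gr1 (95% interval -1.41 to 0.51), 0.11 for Gr2 (-1.06 to 1.28) and 0.32 for Gr3 (-0.46 to 1.11). At 6pm it was 0.40 for Gr1 (-0.46 to 1.25), 0.34 for Gr2 (-0.69 to 1.38) and 0.25 for Gr3 (-0.46 to 0.96). In the 12am library it was 0.45 for Gr1 (-0.65 to 1.55), 0.76 for Gr2 (-0.56 to 2.08) and 0.39 for Gr3 (-0.53 to 1.31). With all libraries, all 9 intervals spanned 0, and the adjusted p was 0.860 to 1.00 (edgeR).

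Single libraries moved several of these changes. The 12pm change of Gr1 was -1.23 without 12pm replicate 1 (95% interval -2.43 to -0.03, edgeR unadjusted p = 0.0457, adjusted p = 0.675) and -0.013 without 12pm replicate 2. Leaving out each library in turn gave 0.17 to 0.74 for Gr1 at 6pm, the lowest without 6am replicate 1 and the highest without 6am replicate 3. For Gr3 at 6pm it gave 0.066 to 0.46, the lowest without 6pm replicate 3 and the highest without 6am replicate 3. No adjusted p was under 0.05 in any of these fits.

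**Figure D4:**
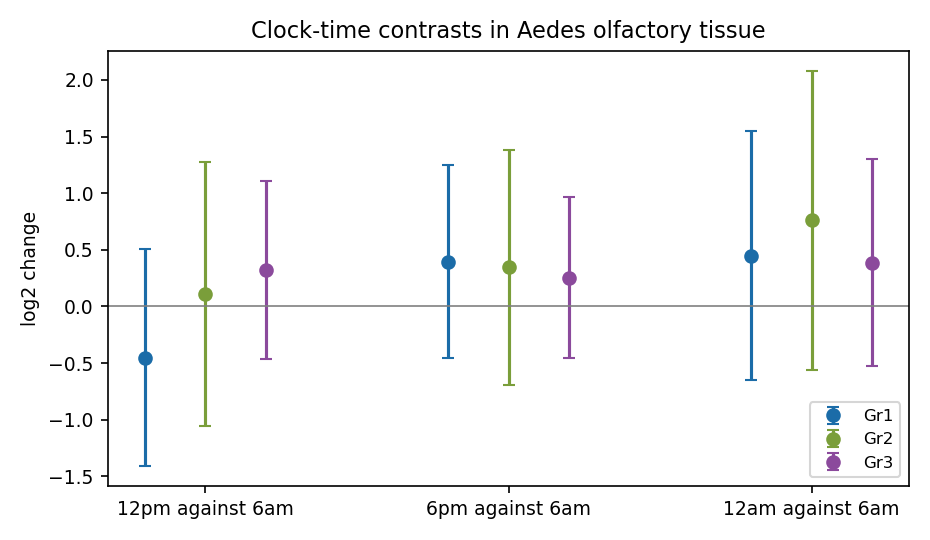
Log2 change of each receptor gene at 12pm, 6pm and 12am against 6am in *Aedes* olfactory tissue, with 95% intervals from the edgeR fit. All 9 intervals cross the line at 0, and the widest is that of Gr2 at 12am (-0.56 to 2.08).

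In the same contrasts 0 of the 9948 genes passed at 12pm and 0 at 12am in edgeR (312 and 258 at an unadjusted p under 0.05), against 2 and 1 with DESeq2, and 0.0905% passed at 6pm, which is 9 genes, against 28 with DESeq2. Scaling moved the sizes: without TMM the median change of all genes from 6am to 6pm was 0.28 on the log2 scale, and the 6pm changes of Gr1, Gr2 and Gr3 were 0.70, 0.66 and 0.55 with adjusted p of 0.617 to 0.674. Relative to that median they were of about the size found with TMM. The change of Gr2 at 6pm turned to -0.27 without 6pm replicate 3, and that at 12pm turned to -0.06 without 6am replicate 3.

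The test of whether clock-time differences themselves differed between olfactory tissue and brain was passed by none of the 3 genes, at adjusted p of 0.972 for Gr1, 0.976 for Gr2 and 0.972 for Gr3 (edgeR). It was passed by 0 of 11455 genes in edgeR (371 at an unadjusted p under 0.05) and by 19 with DESeq2. With at most 13 reads of any receptor gene in a brain library, the brain side of this comparison was weak.

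Ratios between the genes within a library do not shift with its depth or scaling, but their counting error grows where reads are few. They are not corrected for length. The ratio of Gr3 to Gr1 reads was 1.03 and 0.880 in the 6am libraries, 1.22 and 2.61 in the 12pm libraries, 0.766, 0.893 and 0.909 in the 6pm libraries, and 0.901 in the 12am library. Apart from 12pm replicate 2, it stayed between 0.766 and 1.22. That library held 18 reads of Gr1, 25 of Gr2 and 47 of Gr3, and it was the only one with more Gr2 than Gr1 reads.

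The ratio of Gr2 to Gr1 ranged from 0.286 (6pm replicate 2) to 1.39 (12pm replicate 2), with a median of 0.604. The shallowest library, 6pm replicate 2, held 28 reads of Gr1, 8 of Gr2 and 25 of Gr3. Its Gr2 count has a Poisson SD of 35.4%. The ratio of Gr3 to Gr2 ranged from 1.25 (6pm replicate 3) to 3.13 (6pm replicate 2), with a median of 1.93, so Gr3 had more reads than Gr2 in all 8 olfactory libraries. Exact permutation tests over clock times gave p = 0.598 for Gr2 to Gr1, 0.176 for Gr3 to Gr1 and 0.787 for Gr3 to Gr2 (adjusted p = 0.787, 0.529 and 0.787 over the 3 ratios).

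**Figure D5:**
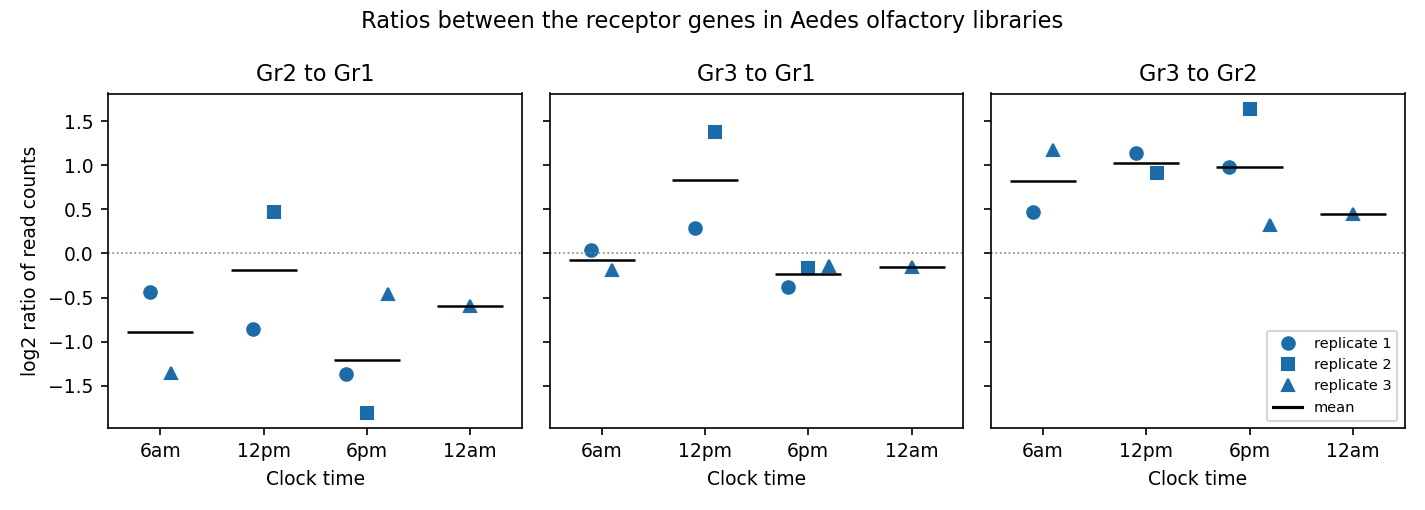
Log2 ratios of read counts between the receptor genes in the 8 *Aedes* olfactory libraries by clock time, with marker shapes for the replicate number and black lines for means. In the panel of Gr3 to Gr1, 12pm replicate 2 lies at 1.38 and the other libraries between -0.38 and 0.28.

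Across the 8 olfactory libraries the genes varied together to different degrees, on log2(CPM + 1), in 3 relations that share the library totals. Gr2 and Gr3 had Pearson's r = 0.815 (exact permutation p = 0.0134, adjusted p = 0.0403) and Spearman's rho = 0.881 (p = 0.00724, adjusted p = 0.0217), and r = 0.651 without the 2 libraries farthest from the median of Gr2, 6pm replicates 2 and 3. Gr1 and Gr3 had r = 0.635 (exact permutation p = 0.0909, adjusted p = 0.136) and rho = 0.786 (p = 0.0279, adjusted p = 0.0419), and r = 0.925 without 12pm replicate 2 and 6pm replicate 1. Gr1 and Gr2 had r = 0.507 (exact permutation p = 0.198, adjusted p = 0.198) and rho = 0.571 (p = 0.151, adjusted p = 0.151), and r = 0.772 without the same libraries.

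Depth moved with these levels. The correlation of log2(CPM + 1) with log2 reads in genes was r = 0.728 for Gr1 (exact permutation p = 0.0408, adjusted p = 0.0612; rho = 0.714, p = 0.0576, adjusted p = 0.0576). It was r = 0.884 for Gr2 (exact permutation p = 0.00513, adjusted p = 0.0154; rho = 0.833, p = 0.0154, adjusted p = 0.0461) and r = 0.655 for Gr3 (exact permutation p = 0.0770, adjusted p = 0.0770; rho = 0.714, p = 0.0576, adjusted p = 0.0576). Without the shallowest and the deepest library, 6pm replicates 2 and 3, r was 0.829 for Gr1, 0.618 for Gr2 and 0.266 for Gr3, so the relation of Gr3 rests on those libraries. Among the 8735 genes that averaged 10 or more reads, the median r with depth was 0.233, and 0.366% of them reached the r of Gr2, 4.71% that of Gr1 and 9.18% that of Gr3. The part of depth in the clock-time values was not tested.

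The share of the most counted gene, AAEL006259, moved the other way, with r = -0.779 for Gr1 (exact permutation p = 0.0212, adjusted p = 0.0636; rho = -0.786, p = 0.0279, adjusted p = 0.0838), -0.558 for Gr2 (p = 0.157, adjusted p = 0.157; rho = -0.595, p = 0.132, adjusted p = 0.132) and -0.645 for Gr3 (p = 0.0762, adjusted p = 0.114; rho = -0.714, p = 0.0576, adjusted p = 0.0864). Without 6pm replicates 1 and 3, where this share was lowest at 9.06% and 10.5%, r was -0.605 for Gr1, -0.201 for Gr2 and -0.124 for Gr3. These relations rest on those libraries for Gr2 and Gr3. No adjusted p among them was under 0.05, and the same relation over all other genes was not computed. The part of this gene in the receptor levels was not tested.

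The genes whose olfactory pattern was most like each receptor gene were ranked by Pearson's r of log2(CPM + 1) over the 8 olfactory libraries, among the 8734 other genes that averaged 10 or more reads. The files do not pair identifiers with names, so the nearest gene is given for each. AAEL008932 was nearest to Gr1 (r = 0.998) and was at 23.8 CPM in olfactory tissue and 18.3 CPM in brain on average. AAEL019586 was nearest to Gr2 (r = 0.954), at 73.5 CPM in olfactory tissue and 397 CPM in brain. AAEL003505 was nearest to Gr3 (r = 0.982), at 67.0 CPM in olfactory tissue and 41.8 CPM in brain. None of these showed the strong olfactory excess of the receptor genes. Each r of a nearest gene is the highest among 8734 genes over only 8 libraries, so it is high by selection.

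The receptor genes were not each other's nearest neighbours. Gr3 stood at rank 124 and Gr1 at rank 1685 of 8734 in likeness to Gr2. In likeness to Gr3, Gr2 stood at rank 333 and Gr1 at rank 1599. In likeness to Gr1, Gr3 stood at rank 2604 and Gr2 at rank 3465. The median r over all genes was 0.346 for Gr1, 0.219 for Gr2 and 0.327 for Gr3. These ranks are a description of 8 libraries, which share the library totals.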

How the data were processed

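Each *Aedes* library has its own file of raw gene-level read counts, deposited by the authors. The tools bcl2fastq, FastQC, STAR and HTSeq are named without versions, per the submitters' processing notes. The sources used here state no build, annotation release or strand setting, so counts of overlapping, antisense or near-identical genes are uncertain. Of 24 *Aedes* samples 16 were used and 8 were not used here. The 3 genes and the gene lists were chosen with earlier results of these data known. No name was paired with the other identifiers, so the planned lists of receptor families and cell type markers, and the check of the dissected tissue against its markers, were not used here. Coordinates, sequences and lengths are not given.

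Overwritten text (44 stretches) made 405 of 19804 genes (2.05%) unreadable in at least 1 library, and these were left out. The 3 receptor genes were readable in all libraries, and none lay within 1024 bytes before a stretch. Lines naming no gene took 29.9 to 58.2% of reads per library and stayed out of totals and tests.

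Tests used edgeR 4.0.16 (TMM, filterByExpr, robust quasi-likelihood, adjusted p by Benjamini-Hochberg over all genes tested) in R 4.3.3 with limma 3.58.1, and DESeq2 1.42.0 as an alternative. The scripts were tested on simulated data. The tissue fit had a term for each tissue and clock time, and clock times were tested within a tissue. The SE was taken as the absolute log2 change divided by the root of F, and 95% intervals of contrasts use it, so both are approximate. Exact permutation tests, two-sided for tissues and on the sum of squares between clock times, used log2(CPM + 1) or log2 ratios of counts. Named genes were the 3 receptor genes and, by rule, the 3 nearest in likeness to each, of which 1 is printed. Permutations and intervals used scipy 1.17.1 with pandas 2.3.3 and numpy 2.4.6, and plots matplotlib 3.10.9, under Python 3.11.15. The design text calls the replicates biological. The labels do not say what a shared replicate number marks, so samples were not treated as pairs. Alternatives were another tool, scaling, low-count filter, replicate block, text damage, time shape and leaving out each library.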

Additional observations from a re-analysis of the deposited data

Results flagged for a closer look

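Gr3 in brain 12am replicate 3 stood apart from the other 7 brain libraries, at 0.660 CPM (5 reads), where the next value was 0.197 CPM (1 read). The log2 ratio of Gr3 to Gr1 in olfactory 12pm replicate 2 stood apart from the other 7 olfactory libraries, at 1.38, where the next was 0.28. That library had the lowest share of reads assigned to genes, 41.8%, the highest share outside annotated genes, 34.7%, and 18 reads of Gr1. Their part in the ratio was not tested. Both were found by comparing the gap to the nearest library with the range of 8 libraries, in 9 sets of values. Chance marks about 1 set in 20 where values are independent and normally distributed. Gr3 in brain consists of few and tied counts, and the ratio sets share their counts with other sets, so that rate may not hold here.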

How the results depend on the processing

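The excess in olfactory tissue kept its direction and its call for all 3 genes in every alternative that gave a value, with p of at most 0.000155. Gr2 was not tested in the tissue fit of genes averaging 50 or more counts. No clock-time result of the 3 genes passed in any of 283 alternatives with an adjusted p. The direction of the tissue-by-time contrast (12am against 12pm) for Gr1, -0.01, changed to 0.034 with DESeq2, 0.077 with DESeq2 size factors, 0.12 without TMM, 0.023 without the low-count filter and 0.23 with the replicate block, and it was -4.29 to 1.23 with 1 library left out. For Gr2 (12am against 6am) it was 0.11, -0.30 with the replicate block and -0.67 to 1.61 with 1 library left out. For Gr3 it was -0.56, and -1.57 to 3.15 with 1 library left out. With 1 library left out, the olfactory change of Gr2 against 6am was -0.058 to 0.26 at 12pm and -0.27 to 0.65 at 6pm, and that of Gr1 at 12pm was -1.23 to -0.013 (-0.0037 with the replicate block). The cause was not tested. Deviations of samples with the same replicate number correlated at -0.250 to 0.177 (mean 0.0613, against -0.0279 for different numbers) in olfactory tissue and at -0.151 to 0.496 (mean 0.258, against -0.155) in brain. Between different numbers the largest correlation was 0.250 in olfactory tissue and 0.496 in brain. The libraries that correlated best with their own number were 3 of 7 in olfactory tissue and 6 of 8 in brain. In a group of 2 libraries the deviations from the group mean are equal and opposite. These correlations are thus not independent, and they cannot decide whether the numbers mark pairs. The replicate block moved the genes called over clock times to 28 in olfactory tissue, against 5 without it, and to 0 in brain (343 at an unadjusted p under 0.05), against 1 without it (131 at an unadjusted p under 0.05, and 17 called with DESeq2). Genes called over clock times in olfactory tissue were 43 with DESeq2, 3 without TMM or among genes averaging 50 or more counts, 343 with no low-count filter and 11 with 24-hour cosine and sine terms. At 6pm against 6am they were 9, 28 with DESeq2, 33 with the replicate block and 186 with no low-count filter. Counts of 8 to 47 reads of a receptor gene in the shallowest olfactory libraries, and of 0 to 13 in brain, limit what could be seen.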
